A study of Mus musculus with 8 samples.

Results

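The 10 genes followed here mark position along the gut: 8 posterior Hox genes (Hoxd10, Hoxd11, Hoxd13, Hoxb13, Hoxb8, Hoxb9, Hoxa13 and Hoxa10) and the caudal-type genes Cdx1 and Cdx2. They were found on the array through the transcript accession of each probe, and each of the 10 had a probe, out of 16309 named genes. The 10 genes had 12 probes. The probe with the highest mean signal stood for its gene, and Hoxa13 and Hoxb8 had 2 probes each.

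The study asked how housing mice alone, a psychological stress, changes the transcripts of the rectum, and set the middle part of the colon beside it. Each of 8 arrays held mucosal RNA pooled from 5 mice, so that each combination of tissue, genotype and housing was 1 array. The 4 rectum arrays came from IL18ko stress, IL18ko control, WT stress and WT control mice, and the 4 colon arrays from the same 4 mouse groups. IL18ko mice lack the gene for the cytokine interleukin 18, and WT mice carry it. All mice were brothers that shared a cage after weaning up to an age of 10 to 12 weeks. Stress mice were then isolated in single cages, for 8 days in the design text and 16 days in the treatment protocol. Control mice were taken before isolation. The sources used here do not name the strain. A pool gives no spread between mice, and the p-values below measure only the spread between pools.

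Hox genes code for transcription factors that lie in 4 clusters, HoxA to HoxD, and are numbered by paralog group. In the embryo, genes at the low-numbered end of a cluster are used further forward and those at the high-numbered end further back, which is why groups near the end are called posterior. The Cdx genes are relatives of the Hox genes outside those clusters. Cdx2 sets and keeps the identity of intestinal epithelium, and Cdx proteins also act on Hox genes in the mouse embryo. In adult gut many of these genes stay on at levels that differ along its length.

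The arrays were alike in quality: 62.2% to 66.4% of 43379 spots were well above background, none was saturated, and arrays of 1 tissue correlated at 0.981 to 0.994, against 0.944 to 0.960 between tissues. Il18 itself had log2 levels of -7.85 to -7.48 in IL18ko arrays, with 0 of 4 above background, against 2.76 to 5.88 in WT arrays. All rectum arrays lay on 1 slide and all colon arrays on the other, so that tissue and slide cannot be told apart. In these bulk samples, fewer cells of a type and less RNA per cell cannot be told apart either. Levels below are log2 signals relative to the 75th percentile of the array, so that a level of 0 equals that percentile, and levels of different genes are not compared because they come from different probes.

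Between rectum and colon, 5 of the 10 genes were called higher (Hoxd13, Hoxd10, Hoxd11, Hoxb13 and Hoxa13), 4 were called lower (Cdx2, Hoxb8, Hoxb9 and Hoxa10), and Cdx1 was not called. A gene was called where the limma test on 4 differences between rectum and colon, 1 for each mouse group, gave an adjusted p (Benjamini-Hochberg over all 26265 probes tested) under 0.05. By that rule 27.1% of all probes tested were called, 13.1% higher and 14% lower. The 9 called genes were also those whose rectum and colon arrays did not overlap, which held for 30.8% of all probes tested. Hoxd11 and Hoxd13 entered the test only through the rectum and Hoxb8 only through the colon, so their call follows in part from the filter. Of the 6 genes well above background on all 8 arrays (Hoxb13, Hoxa13, Hoxa10, Hoxb9, Cdx1 and Cdx2), 5 were called in a fit to such probes alone, where 25.3% of probes were called. Values after ± are standard errors (SE) of the fit unless marked as SD.

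**Figure D1:**
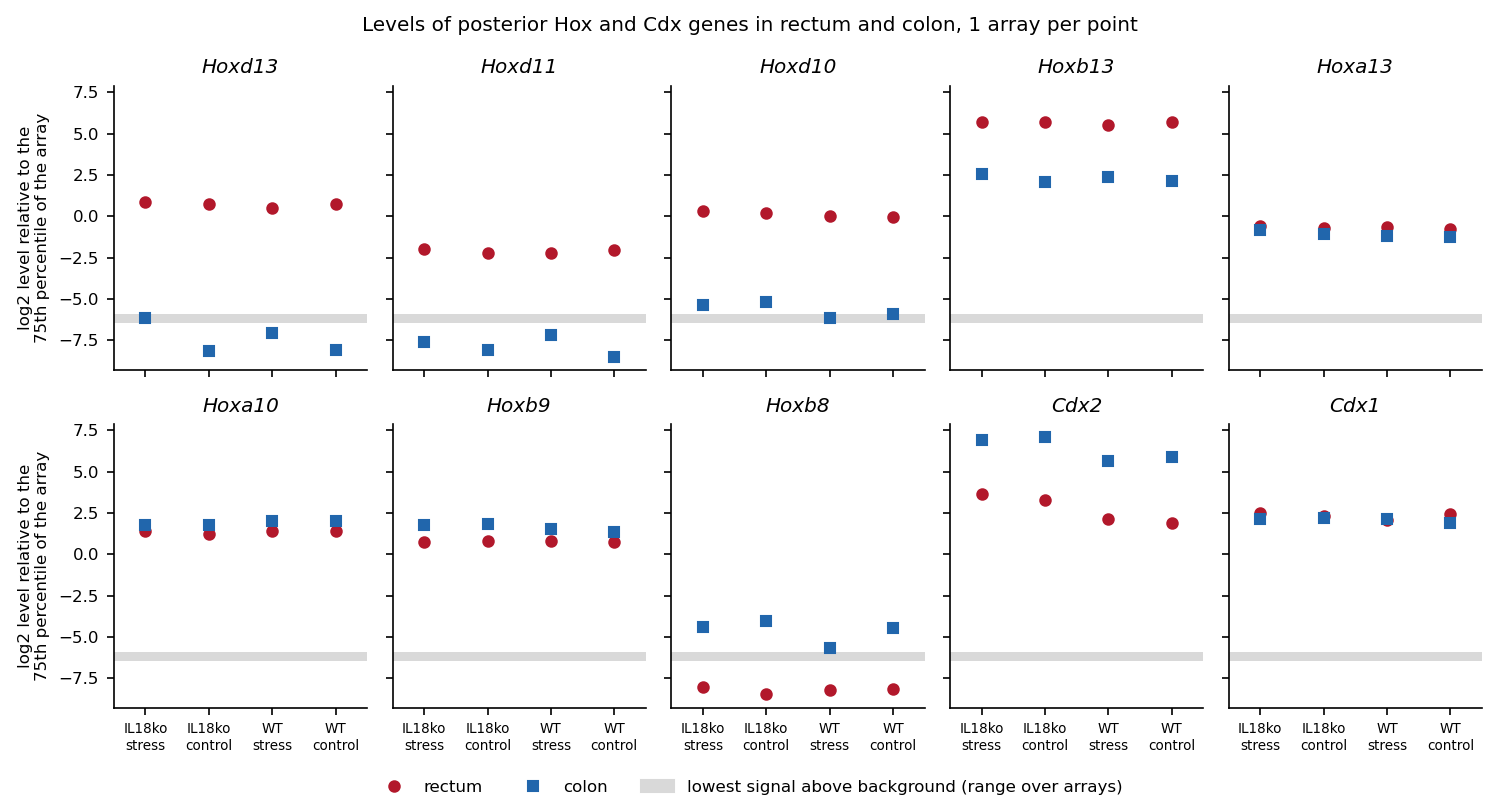
Log2 level relative to the 75th percentile of the array (vertical axis) in the 4 mouse groups (horizontal axis), with 1 array per point, rectum as circles and colon as squares. The grey band spans the lowest signal well above background, from -6.44 to -5.92 over the arrays. Hoxd13 and Hoxd11 lie above the band in rectum and within or under it in colon, Hoxb8 the other way, and Cdx2 is lower in rectum and higher in IL18ko mice.

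The 3 HoxD genes, on chromosome 2, were higher in rectum. Hoxd13, the last gene of its cluster and one needed for the hindgut and anal sphincter in mice, had levels of 0.86, 0.77, 0.47 and 0.75 in the rectum of IL18ko stress, IL18ko control, WT stress and WT control mice, and of -6.15, -8.15, -7.04 and -8.08 in the colon of the same groups. It was well above background on 4 of 4 rectum arrays and 0 of 4 colon arrays, so that its fold is a bound. The rectum signal was at least 124-fold higher than the colon signal (limma, adjusted p = 3.2e-05). For such bounds each colon array was given the higher of its own signal and its lowest signal well above background. The fitted difference was 8.07 ± 0.34; it rests on colon signals under background and was 6.95 with low signals raised to the lowest signal above background and 3.06 with normexp background correction, a model of background that pulls low signals together.

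Hoxd11, of the same cluster, had levels of -2.20 to -1.98 in rectum and -8.49 to -7.17 in colon. It too was above background on 4 rectum arrays and 0 colon arrays, and its rectum signal was at least 17.7-fold higher (adjusted p = 4.2e-05). The fitted Hoxd11 difference was 5.74 ± 0.27, and 1.37 with normexp background correction. Hoxd10 had levels of 0.30, 0.20, 0.03 and -0.02 in the rectum of IL18ko stress, IL18ko control, WT stress and WT control mice and of -5.35, -5.18, -6.17 and -5.92 in the colon of the same groups. Of the colon arrays only the 2 of IL18ko mice were above background for Hoxd10. Its difference was 5.79 ± 0.17 (adjusted p = 6.9e-06), and the 4 pairs lay between 5.38 and 6.21. With normexp background correction the Hoxd10 difference was 2.45, still called. The spread over the 4 mouse groups of a tissue was small beside these differences: Hoxd10 averaged 0.13 ± 0.15 in rectum and -5.66 ± 0.47 in colon (SD, n = 4 arrays each).

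The stretches around the starts of these HoxD genes are shown because the 3 genes belong to 1 cluster and differed in the same direction. Each holds 300 bases, 250 before and 50 from the gene's start onward, from RefSeq on build GRCm38.p6, on the gene's own strand, with CpG dinucleotides in capitals.
Hoxd13, chr2:74667975-74668274, plus strand: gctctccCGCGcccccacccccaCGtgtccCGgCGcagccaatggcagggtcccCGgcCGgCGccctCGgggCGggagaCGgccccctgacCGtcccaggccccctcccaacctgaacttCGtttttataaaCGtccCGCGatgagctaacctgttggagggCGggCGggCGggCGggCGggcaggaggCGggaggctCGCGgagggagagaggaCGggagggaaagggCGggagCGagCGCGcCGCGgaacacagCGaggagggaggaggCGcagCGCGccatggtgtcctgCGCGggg
Hoxd11, chr2:74682073-74682372, plus strand: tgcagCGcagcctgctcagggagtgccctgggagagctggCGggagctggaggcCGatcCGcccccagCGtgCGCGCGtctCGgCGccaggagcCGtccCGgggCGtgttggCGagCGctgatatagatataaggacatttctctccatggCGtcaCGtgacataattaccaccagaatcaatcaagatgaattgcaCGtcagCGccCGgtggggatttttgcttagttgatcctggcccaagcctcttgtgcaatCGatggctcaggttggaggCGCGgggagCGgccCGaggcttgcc
Hoxd10, chr2:74691641-74691940, plus strand: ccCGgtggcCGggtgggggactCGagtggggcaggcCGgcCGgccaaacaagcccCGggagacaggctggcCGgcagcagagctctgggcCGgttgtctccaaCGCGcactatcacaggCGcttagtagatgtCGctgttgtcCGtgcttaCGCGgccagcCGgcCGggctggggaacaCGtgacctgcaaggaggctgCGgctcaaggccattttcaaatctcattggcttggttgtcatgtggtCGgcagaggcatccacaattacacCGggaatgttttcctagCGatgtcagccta
They held 37, 25 and 22 CpGs in the order shown, against a median of 7 over 32851 such windows. The median over 24 Hox windows was 14.5. Windows of genes called lower in rectum held 21 and 12 (Hoxa10), 18 (Cdx2) and 13 (Hoxb8), and that of Hoxa13 held 45. A second, upstream Hoxd11 window, printed further on, held 4, and 31.4% of all windows held fewer. For Hoxd13, 94.4% of all windows held fewer CpGs. Methylation was not measured, and CpG content is a description of the sequence only.

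Hoxb13, the last gene of the HoxB cluster on chromosome 11 and a gene of the adult prostate and distal large bowel, was measured well above background on all 8 arrays. Its levels were 5.71, 5.72, 5.55 and 5.68 in the rectum of IL18ko stress, IL18ko control, WT stress and WT control mice, and 2.55, 2.09, 2.40 and 2.15 in the colon. The difference was 3.37 ± 0.12 (adjusted p = 1.4e-05), a 10.3-fold higher signal in rectum. The rectum values spanned only 5.55 to 5.72, and each pair differed by 3.14 to 3.63.

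Hoxa13, the group 13 gene of the HoxA cluster on chromosome 6 and needed with Hoxd13 for the hindgut in mice, had a small difference. It had levels of -0.56, -0.70, -0.66 and -0.78 in the rectum of IL18ko stress, IL18ko control, WT stress and WT control mice and of -0.85, -1.06, -1.21 and -1.28 in the colon. The groups did not overlap, and the difference was 0.43 ± 0.11 (adjusted p = 0.0297). The call was lost in 3 of 4 fits that left out a mouse group (adjusted p 0.0589 without the IL18ko stress pair, 0.125 without the IL18ko control pair and 0.158 without the WT control pair). The second Hoxa13 probe was higher in rectum in 4 of 4 pairs as well, by 0.19 to 0.46, and was not called (0.31 ± 0.11, adjusted p = 0.0798).

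Hoxa10, also on chromosome 6, ran the other way. Its levels were 1.25 to 1.41 in rectum and 1.76 to 2.04 in colon, a difference of -0.54 ± 0.10 (adjusted p = 0.0094) that was negative in all 4 pairs. The call was lost without the IL18ko control pair (adjusted p 0.0694) or the WT control pair (adjusted p 0.0784). Hoxb9 had levels of 0.73 to 0.84 in rectum and 1.38 to 1.85 in colon, and its difference of -0.85 ± 0.11 (adjusted p = 0.00249) kept its call without each mouse group in turn.

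Hoxb8 was seen in the colon only. Its levels were -8.04, -8.42, -8.18 and -8.16 in the rectum of IL18ko stress, IL18ko control, WT stress and WT control mice, not well above background on any of these arrays, and -4.37, -4.04, -5.63 and -4.47 in the colon, above background on 4 of 4. The colon signal was at least 2.84-fold higher than the rectum signal (adjusted p = 0.000672); the fitted difference was -3.57 ± 0.34. With low signals raised to the lowest signal above background it was -1.51 ± 0.32, and with normexp background correction -0.41, both still called. The second Hoxb8 probe was above background on 1 of 8 arrays and was not tested.

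Cdx2, on chromosome 5, was lower in rectum. Its levels were 3.66, 3.31, 2.11 and 1.89 in the rectum of IL18ko stress, IL18ko control, WT stress and WT control mice and 6.93, 7.10, 5.62 and 5.88 in the colon, so that the highest rectum array lay under the lowest colon array. The difference was -3.64 ± 0.14 (adjusted p = 1.8e-05), and the colon signal was 12.5 times the rectum signal. All 4 pairs fell in the range -4.00 to -3.27. Cdx1, on chromosome 18, which acts beside Cdx2 in intestinal epithelium, had levels of 2.48, 2.30, 2.08 and 2.44 in rectum and 2.11, 2.22, 2.14 and 1.89 in colon. The Cdx1 groups overlapped, and the difference of 0.24 ± 0.13 was not called (adjusted p = 0.227), although it passed without the WT stress pair (0.33, adjusted p 0.0395), the 1 pair in which Cdx1 was lower in rectum.

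The other Hox genes were compared in the same way. Of 39 Hox genes 36 had a probe and 28 were tested: 6 were called higher in rectum, 15 lower and 7 not. Their median difference was -0.62, against 0.05 over all probes tested, of which 13.1% were called higher and 14% lower. HoxA had 1 gene higher and 6 lower of 11 tested, HoxB 1 higher and 8 lower of 9, HoxD 4 higher and 1 lower of 6, and HoxC 0 called of 2. In HoxC, 4 of the 7 genes with a probe had no array above background. Of 4 other scalings, quantile normalization, median centring and normexp each gave 6 or 7 of 28 higher and 15 lower. The fourth, the authors' deposited ratios, allowed a test of 17, of which 5 were higher and 10 lower. Among the 21 Hox genes above background on all 8 arrays, 2 were called higher and 13 lower in the fit to all probes tested. A separate fit to probes above background on all 8 arrays called 12.7% of them higher and 12.6% lower.

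In HoxB every tested gene from group 2 to group 9 was called lower in rectum and Hoxb13 higher. The difference was -0.76 ± 0.19 for Hoxb2, -2.31 ± 0.19 for Hoxb5, -2.83 ± 0.13 for Hoxb7 and -0.85 ± 0.11 for Hoxb9. No test of an order along the cluster was run. In HoxA, Hoxa11 had the largest difference of its cluster, -1.99 ± 0.24 (adjusted p = 0.00157), opposite in sign to Hoxa13. In HoxD, Hoxd4 was lower (-1.77 ± 0.37, adjusted p = 0.0151), and Hoxd12 was above background in rectum alone, at least 4.56-fold higher (adjusted p = 0.000155). Like Hoxd11 and Hoxd13, Hoxd12 entered the test only through the rectum, so its call follows in part from the filter.

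The sign of the called differences changed between groups 11 and 13 in HoxA, between 9 and 13 in HoxB, and between 4 and 10 in HoxD. Some genes do not settle within that order; they were picked out after their values were seen. The 2 probes of Hoxd9 gave 0.37 ± 0.19 (adjusted p = 0.187) and 1.99 ± 0.26 (adjusted p = 0.0022), and those of Hoxa3 had opposite signs, 0.40 and -0.43, with neither called. Probes that cannot tell transcripts of 1 gene apart were not resolved further.

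**Figure D2:**
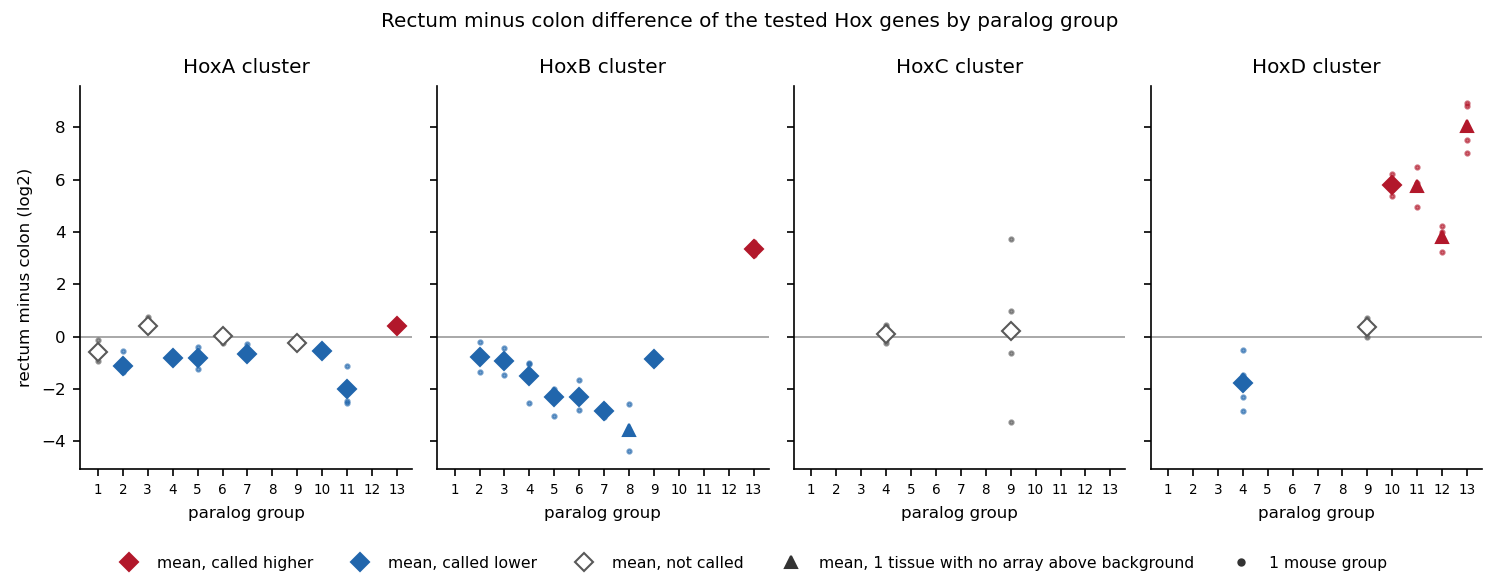
Rectum minus colon difference in log2 signal (vertical axis) against paralog group (horizontal axis) in the 4 Hox clusters; small points are the 4 mouse groups and large symbols their mean, filled where called. HoxB means stand at -0.76 at group 2, -3.57 at group 8, -0.85 at group 9 and 3.37 at group 13. The group 8 mean rests on rectum signals not above background and was -1.51 with low signals raised to the lowest signal above background. HoxD means from group 10 to 13 lie between 3.80 and 8.07, those of groups 11 to 13 with colon signals not above background.

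Cdx proteins bind short AT-rich sequences, and such letters were looked for in the windows of 300 bases around the gene starts. The 2 motifs searched on both strands were CAATAAA, which on the opposite strand reads TTTATTG, found in 4.60% of all 32851 windows, and TCGTAAA, which on the opposite strand reads TTTACGA, found in 0.597%. Windows of 7 of the 10 genes were used, 9 windows in all, of which 1 held CAATAAA and 2 held TCGTAAA. No window was used for Hoxb13, Hoxb9 or Cdx1, and for Cdx1 its chromosome was left out by choice. The windows with a match are those of Hoxb8 and the upstream one of 2 Hoxd11 windows, shown with the matches in capitals, and the Cdx2 window is shown beside them with no match, in lower case.
Hoxb8, chr11:96281655-96281954, plus strand: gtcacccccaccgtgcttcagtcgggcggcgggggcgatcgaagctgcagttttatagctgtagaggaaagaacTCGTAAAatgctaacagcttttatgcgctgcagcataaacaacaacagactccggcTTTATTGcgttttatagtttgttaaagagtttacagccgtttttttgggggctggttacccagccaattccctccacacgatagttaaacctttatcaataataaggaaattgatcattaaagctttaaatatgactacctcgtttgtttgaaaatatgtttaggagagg
Hoxd11, chr2:74679308-74679607, plus strand: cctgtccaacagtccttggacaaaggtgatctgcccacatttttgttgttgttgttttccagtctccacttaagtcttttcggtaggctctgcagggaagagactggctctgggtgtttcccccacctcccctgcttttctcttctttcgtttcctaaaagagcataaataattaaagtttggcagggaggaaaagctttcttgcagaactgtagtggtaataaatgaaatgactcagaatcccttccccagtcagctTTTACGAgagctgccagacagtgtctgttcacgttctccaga
Cdx2, chr5:147307200-147307499, minus strand: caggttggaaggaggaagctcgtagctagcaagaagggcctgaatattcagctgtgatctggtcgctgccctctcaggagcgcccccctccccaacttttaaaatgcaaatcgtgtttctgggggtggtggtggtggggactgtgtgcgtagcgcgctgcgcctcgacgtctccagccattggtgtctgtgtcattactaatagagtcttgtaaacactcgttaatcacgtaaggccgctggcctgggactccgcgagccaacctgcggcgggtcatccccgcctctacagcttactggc
In the Hoxb8 window TCGTAAA begins at position -176 and TTTATTG at -120, counted from the first base of the gene as 0. In the Hoxd11 window TTTACGA begins at position 8. A match is a description of these letters and not a binding site, and Hoxb8 and Hoxd11 differed in opposite directions between tissues.

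Genes known as CDX targets in intestinal epithelium were counted beside all probes tested, of which 27.1% were called between tissues, 13.1% higher and 14% lower. Of 14 such genes 10 had a probe and all 10 were tested: 0 were called higher in rectum, 3 lower and 7 not (2 or 3 lower under the 4 other scalings), with a median of -0.32 against 0.05 over all probes. Those called were Krt20, a keratin of mature surface cells (-0.64 ± 0.10, adjusted p = 0.00556), Car1, a carbonic anhydrase of colon surface cells (-0.54 ± 0.10, adjusted p = 0.0101), and Cdh17, the liver-intestine cadherin (-0.42 ± 0.12, adjusted p = 0.0409). Hnf4a, a transcription factor of gut epithelium, had a difference of 0.21 ± 0.10 (adjusted p = 0.183) and Vil1, a brush border protein, one of -0.07 ± 0.08 (adjusted p = 0.571). Both were picked out after their values were seen.

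**Figure D3:**
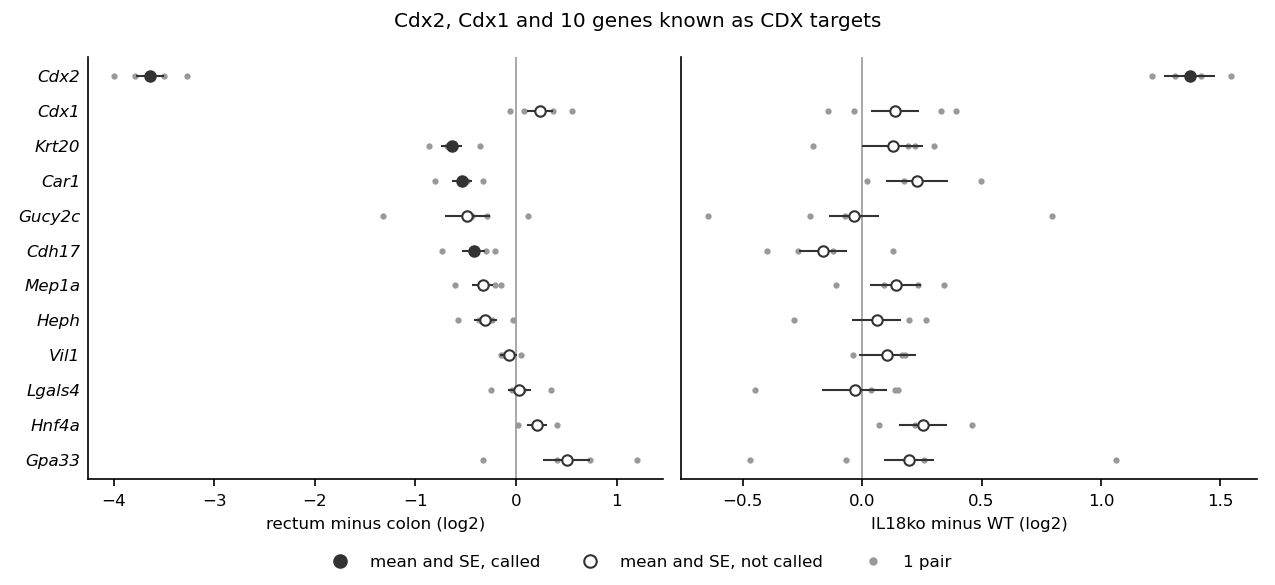
Differences in log2 signal of Cdx2, Cdx1 and 10 genes known as CDX targets, rectum minus colon on the left and IL18ko minus WT on the right. Circles are means with SE, filled where called, and dots are the 4 pairs. Cdx2 stands at -3.64 and 1.37, and the targets lie between -0.64 and 0.50 on the left and between -0.16 and 0.25 on the right.

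Partners and inputs of Hox genes were counted next, beside all probes tested, of which 27.1% were called between tissues, 13.1% higher and 14% lower. Of 11 tested ParaHox genes and Hox cofactors, among them the Meis and Pbx factors that bind DNA with Hox proteins, 0 were called in either direction between tissues (0 or 1 higher under 4 other scalings), with a median of -0.01. Of 20 tested genes that act upstream of Hox genes, 1 was higher and 3 were lower, with a median of -0.03. These genes make, clear or bind retinoic acid or belong to Polycomb complexes, and include the activin receptor gene Acvr2b. The retinaldehyde dehydrogenases, which make retinoic acid, differed in opposite directions. Aldh1a2 was lower in rectum (-3.95 ± 0.25, adjusted p = 0.000125), as was Aldh1a1 (-2.15 ± 0.10, adjusted p = 3.6e-05), while Aldh1a3 was higher (2.77 ± 0.34, adjusted p = 0.00178). Aldh1a2 had levels of -3.36, -2.83, -3.72 and -4.44 in the rectum of IL18ko stress, IL18ko control, WT stress and WT control mice and 0.90, 0.24, 0.11 and 0.20 in the colon, without overlap. Ezh2, the methyltransferase of Polycomb complex 2, was lower by a small amount (-0.40 ± 0.11, adjusted p = 0.0411).

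Markers of other cells moved between the tissues too, where 13.1% of all probes tested were called higher and 14% lower. Epithelial markers were above background on all 8 arrays for 7 of 7 genes, and their summed linear level, in units of the 75th percentile, was 1086 to 1196 in rectum and 996 to 1096 in colon. Skeletal muscle markers (4 of 7 higher) summed to 5.53 to 127 in rectum and 2.79 to 4.75 in colon, and squamous epithelium markers (3 of 5 tested higher, of 11) to 5.79 to 9.04 and 3.39 to 4.50, with Dsg3 and Ivl under background on every array. Enteric neuron and glia markers (5 of 5 tested lower, of 8) summed to 3.72 to 5.78 in rectum and 13.7 to 17.2 in colon. Smooth muscle markers (0 of 7 called) summed to 457 to 659 in rectum and 509 to 766 in colon. Fibroblast markers had 2 of 7 higher, immune markers 1 of 5 tested, and endothelial markers 0 of 6. Of the male accessory and anal gland markers, listed because Hoxb13 is a prostate gene, 1 of 3 tested was higher, and Msmb was under background on every array. The part of these cells in the Hox and Cdx differences was not tested.

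Between genotypes, 2 of the 10 genes were called, Cdx2 and Hoxd10, both higher in IL18ko mice, where 11.6% of all probes tested were called (6.19% higher and 5.4% lower). This comparison was fitted to the 4 mouse-group means of rectum and colon with housing as a term. That leaves 1 residual degree of freedom, so that its errors come mostly from the spread shared by all probes. Litter and cage were not terms of the fit, and with 2 mouse groups per genotype they cannot be told apart from genotype. Cdx2 was higher in IL18ko mice in each of the 4 comparisons of 1 array with 1 array, by 1.54, 1.42, 1.31 and 1.21 in stressed rectum, control rectum, stressed colon and control colon. The levels of both genotypes did not overlap in either tissue, with 2 arrays of each genotype per tissue. How many of all probes show such a split was not counted. The mean difference was 1.37 ± 0.11 (adjusted p = 5.3e-06), a 2.59-fold higher signal in IL18ko mice.

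Cdx2 was called in 8 of 10 other settings. It was called with the 8 arrays taken as separate samples (adjusted p = 0.0145), where 0.122% of probes were called, and was lost without the trend of the variance (adjusted p = 0.0627, 0.0685% of probes called) and with no filter on dim probes (adjusted p = 0.219). Without 1 array the difference stayed within 1.27 to 1.47, and the call was kept in 2 of 8 such fits, those without the rectum array of IL18ko stress or of WT stress mice. As a description of size, the smallest pair difference of Cdx2 itself, 1.21, was taken as the limit. In all 4 pairs, 4 of 12716 tested genes were higher in IL18ko mice by at least that much, and 6 were lower by as much. The 4 were Cdx2, which the limit includes by its choice, Lypd3, Apoc3 and Lep, and the 6 included Il18 itself. Among the 11795 genes above background on all 8 arrays these were 1 higher, Cdx2, and 3 lower, Nxpe2, Nxpe4 and Atm. The genes other than Cdx2 are named because of these counts, after their values were seen. They are not independent of the knockout: the Nxpe genes lie beside Il18. For such genes the lack of Il18 and differences in the DNA near it cannot be told apart.

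Whether the Cdx2 genotype difference depended on the tissue was tested on the rectum minus colon differences. The estimate for rectum over colon was 0.22 ± 0.39 and was not called (adjusted p = 0.9998). None of the 10 genes was called in that test, in which limma called 0.43% of all probes, and 0 of the 10 had an unadjusted p under 0.05. No other tool was run on it. The test allows little: its SE for the 10 genes lay between 0.39 and 0.74.

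Hoxd10 was higher in IL18ko mice by 0.27, 0.22, 0.82 and 0.74 in stressed rectum, control rectum, stressed colon and control colon, and its mean difference was 0.51 ± 0.15 (adjusted p = 0.0385). The colon values rest on signals near background, since neither WT colon array was above it. The call held in 3 of 9 other settings, with adjusted p from 0.0430 to 0.243, and was lost with the 8 arrays as separate samples (adjusted p = 0.135). With normexp background correction the estimate was 0.16. Of 8 fits that left out 1 array, 1 kept the call, that without the rectum array of WT stress mice (adjusted p = 0.0349). The other 8 genes were not called. Their estimates lay between -0.18 ± 0.10 for Hoxa10 and 0.39 ± 0.36 for Hoxb8, and Cdx1 had 0.14 ± 0.10 (adjusted p = 0.414). Hoxb13 had 0.07 ± 0.11 (adjusted p = 0.691).

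**Figure D4:**
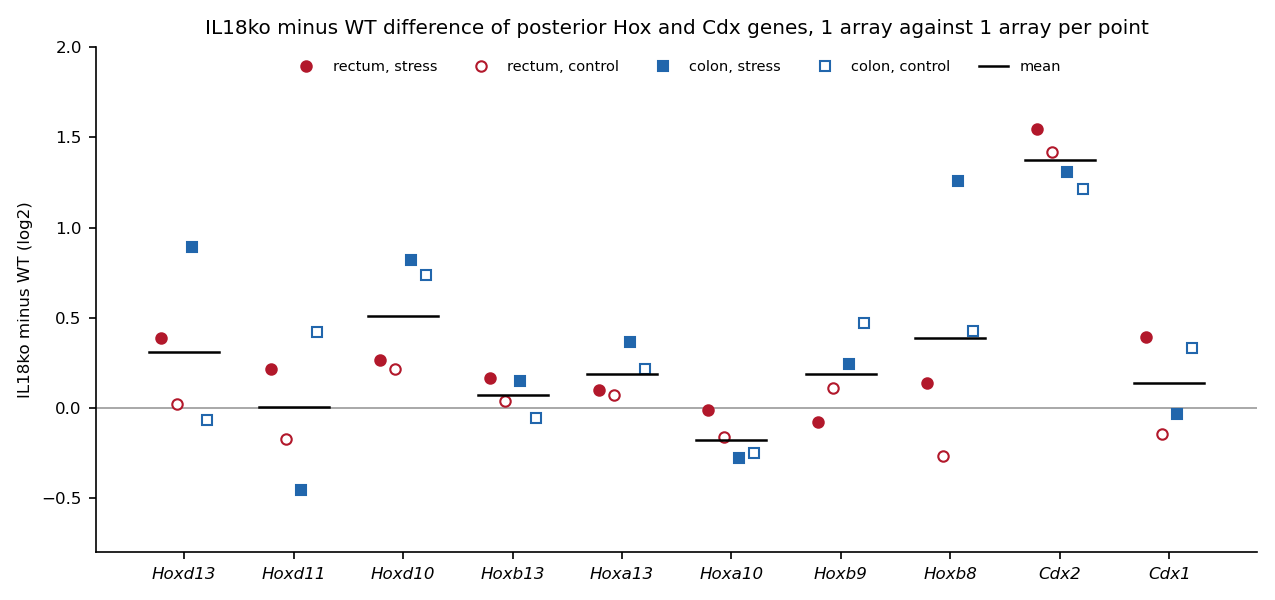
IL18ko minus WT difference in log2 signal (vertical axis) for the 10 genes (horizontal axis), with 1 array against 1 array per point, circles for rectum, squares for colon, filled for stress and open for control; the line is the mean. The 4 points of Cdx2 lie between 1.21 and 1.54, above every point of the other genes but 1 of Hoxb8, whose colon signals were close to background, and the colon points of Hoxd13 and Hoxd11 and the rectum points of Hoxb8 rest on signals not above background.

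Of all 28 Hox genes tested, 5 were called higher in IL18ko mice and 0 lower. Their median difference was 0.17 against 0.01 over all probes. Between genotypes 6.19% of all probes tested were called higher and 5.4% lower. Under the 4 other scalings 1 to 4 Hox genes were called higher and 0 lower. Beside Hoxd10 the 5 were Hoxd4 (1.12 ± 0.18, adjusted p = 0.00329), Hoxb5 (0.68 ± 0.14), Hoxb2 (0.53 ± 0.12) and Hoxb7 (0.41 ± 0.11). The 10 CDX target genes gave 0 calls by limma and 1 at an unadjusted p under 0.05, with a median of 0.12. Under 3 of 4 other scalings 1 was called, Car1, and over the 4 scalings 1 to 6 had an unadjusted p under 0.05, the 6 under quantile normalization and under normexp (medians 0.24 and 0.22). Of these genes, picked out after their values were seen, Hnf4a had 0.25 ± 0.10 (adjusted p = 0.119) and Cdh17 -0.16 ± 0.10 (adjusted p = 0.315). Of the Hox cofactors 2 of 11 were called higher (1 to 3 under other scalings), Meis2 (0.64 ± 0.11, adjusted p = 0.00349) and Meis1 (0.54 ± 0.17, adjusted p = 0.0484). Of the upstream genes 3 of 20 were higher (1 to 3 under other scalings): Cyp26b1, which breaks down retinoic acid (0.76 ± 0.16), Aldh1a2 (0.70 ± 0.13) and the retinoic acid receptor gene Rarb (0.52 ± 0.14).

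Some non-epithelial markers were called between genotypes as well, where 6.19% of all probes tested were called higher and 5.4% lower. Smooth muscle markers were called higher in IL18ko mice for 3 of 7 genes and summed to 559.6 to 766 in IL18ko arrays and 457 to 586 in WT arrays. Endothelial markers were higher for 3 of 6, enteric neuron and glia markers for 3 of 5 tested, skeletal muscle markers for 3 of 7 and fibroblast markers for 2 of 7. The skeletal muscle markers summed to 127 and 27.0 in the rectum of IL18ko control and IL18ko stress mice. They summed to 5.53 and 14.2 in the rectum of WT control and WT stress mice, and to 2.79 to 4.75 in colon. In the test of genotype by tissue, which called 0.43% of all probes, 6 of these 7 markers were called. Epithelial markers were higher for 1 of 7 (Cldn4, a claudin, 0.61 ± 0.12), with sums of 1049.6 to 1098 in IL18ko arrays and 996 to 1196 in WT arrays. Immune markers were lower for 1 of 5 and male accessory and anal gland markers for 2 of 3. These counts depended on the scaling: over the 4 others, smooth muscle markers were higher for 0 genes (median centring) to 6 (deposited ratios), fibroblast markers for 0 to 4, skeletal muscle markers for 2 to 4, endothelial markers for 1 to 3, enteric neuron and glia markers for 2 or 3 and epithelial markers for 1. The part of these cells in the Hox and Cdx differences was not tested.

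Between stress and control housing, 0 of the 10 genes were called by limma, in a comparison that called 0.0876% of all probes and in which 2545 probes had an unadjusted p under 0.05. Hoxd13 was the 1 gene of the 10 with an unadjusted p under 0.05, with 0.71 ± 0.18 for stress over control (adjusted p = 0.231). That value rests on colon signals under background: the pairs were 0.10, -0.27, 1.99 and 1.04 in IL18ko rectum, WT rectum, IL18ko colon and WT colon, and with low signals raised to the lowest signal above background the estimate was -0.07. Cdx2 had 0.03 ± 0.11 (adjusted p = 0.938) over both tissues. Its pairs were 0.35, 0.23, -0.17 and -0.27 in IL18ko rectum, WT rectum, IL18ko colon and WT colon, higher under stress in both rectum pairs and lower in both colon pairs. Hoxd10 had the same signs, with values of 0.10, 0.05, -0.17 and -0.25 in the same order. Hoxb13 had the opposite signs, with -0.0031, -0.13, 0.46 and 0.26. A test of that dependence on tissue, added after the values were seen, gave 0.51 ± 0.39 for Cdx2, 0.29 ± 0.49 for Hoxd10 and -0.43 ± 0.40 for Hoxb13 (limma, adjusted p = 0.9999 for each). It called 0 of the 10 genes and 0.19% of all probes; 1 of the 10, Hoxd13, had an unadjusted p under 0.05, with colon signals under background.

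Over the 8 arrays, the genes with the most similar profile were found among named genes tested, for each of the 6 genes above background on all arrays. These correlations are descriptions over 8 arrays that share a split by tissue and slide, so that any gene with a clear tissue difference correlates with any other. Hoxb13 was most like Eno3, a muscle enolase (Pearson r = 0.999), Atp12a, an ion-pumping ATPase subunit (0.998), and Cma1, a mast cell chymase (0.998). Cdx2, with its split by tissue and by genotype, was most like Unc5a, a netrin receptor (0.997), Hmx3, a homeobox gene (0.993), and Iqsec3 (0.993). Unc5a was lower in rectum by -0.93 and higher in IL18ko mice by 0.35, both smaller than for Cdx2. Hoxa13 was most like Cpne5, Man2b2 and Gpr153 (0.989 to 0.991), Hoxa10 like Smim10l2a, Gtf3a and 2610318N02Rik (0.988 to 0.994), and Hoxb9 like Dhx29, Rimkla and Fam78a (all 0.990). Cdx1, which has no clear split, was most like Zbtb24, Xxylt1 and Ube2j2 (0.977 to 0.981).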

How the data were processed

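Mucosal RNA pooled from 5 mice per group was hybridised to 8 one-colour arrays. Per the file headers, the authors extracted the background-corrected intensity of each spot with Feature Extraction 9.5.1.1. Per the labels, the authors' deposited value table gives each probe as a linear ratio, with the colon array of WT control mice as its base; the sources used here do not say how arrays were scaled.

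Outlier spots were removed and the rest averaged, which left 40963 of 41174 probes. Transcript accessions named 22857 probes for 16309 genes. The log2 intensity was set relative to the 75th percentile of the array. Tested were probes that rose well above background on 4 or more of the 8 arrays (26265 probes, 12716 genes). Low intensities limit the precision, since a probe not above background has only a bound.

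Each probe was fitted with limma, letting the variance follow the mean level, with Benjamini-Hochberg adjustment over all probes tested. Tissues were compared through 4 rectum minus colon differences, genotype and housing through the 4 mouse-group means. The labels do not say that rectum and colon pools shared mice, which the pairing assumed. Mouse group and position on the slide cannot be told apart.

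Named are the 10 genes, called Hox genes, up to 4 called genes of each list with the largest rise and fall, and the 3 genes most correlated with each of the 10 above background on all arrays; others are marked where they stand. The genes and lists were chosen with earlier results of these data known. Alternatives were quantile normalization, median centring, normexp background correction (offset 50, on median signals), the deposited ratios, a floor, other filters, no trend, the mean of probes, 8 arrays as separate samples, and leaving out arrays. The fits were tested on simulated data. The fits ran in limma 3.58.1 under R 4.3.3; tables and figures were made in Python 3.11.15 with matplotlib 3.10.9, pandas 2.3.3 and numpy 2.4.6. Array coordinates refer to build mm7 and are not given; promoter windows are from RefSeq, GRCm38.p6.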

Additional observations from a re-analysis of the deposited data

How the results depend on the processing

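Every difference is between 1 slide of rectum and 1 slide of colon, or between 2 mouse groups and 2 others, and 4 of the 10 genes (Hoxd10, Hoxd11, Hoxd13 and Hoxb8) were not above background on some or all arrays of 1 tissue, so their sizes are bounds or carry the noise of low signals. Under 10 alternatives for the whole design, the 9 tissue calls and their signs held wherever the gene was tested, although normexp reduced the differences of Hoxd10, Hoxd11, Hoxd13 and Hoxb8 by over 1.5 times; 9 genes were called in the fit as reported, and 5 with probes above background on all 8 arrays, since those 4 were then not tested. Leaving out a mouse group gave 3480 (WT control) to 10575 (WT stress) probes called between tissues, where 7110 were called with all 4 and 3733 without IL18ko control, and 7 to 10 of the 10 genes; Hoxa13, Hoxa10 and Cdx1 changed their call. No replicate block, that is 8 arrays as separate samples, changed no tissue call.

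For genotype, 2 of the 10 genes and 3043 probes were called. The count of genes was 1 under median centring, normexp, probes above background on all arrays, the mean of probes and no replicate block, and 0 with no filter and no trend; leaving out 1 array, with arrays as separate samples, gave 0 to 2. The count of probes was 1879 under median centring (590 higher and 1289 lower, where 1625 and 1418 were reported), 1529 under normexp, 2 with no filter, 18 without the trend, 32 with no replicate block, and, from those 32, 6 to 3571 without 1 array, the highest without WT stress rectum and the lowest without IL18ko control rectum. The sign of genes that were not called turned for Hoxd11 (-0.021 under quantile normalization, -0.072 under median centring, -0.015 under normexp, -0.21 to 0.23 without 1 array), Hoxb13 (-0.0012 under median centring, -0.0021 to 0.16 without 1 array) and Hoxd13 (-0.038 to 0.60 without 1 array). The cause was not tested.

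In the test of genotype by tissue, 113 probes were called as reported, 183 under normexp, 30 with the deposited ratios, whose median over all probes was 0.12 where it was 0.0014 as reported, 396 with no filter, 46 above background on all arrays and 199 without the trend. For stress, 23 probes were called as reported, 4 under quantile normalization, 2 under median centring (1 higher, 1 lower), 3 under normexp, 180 with the deposited ratios, 88 above background on all arrays, 0 with no filter, no trend or no replicate block, and 0 without any 1 array. None of these settings called one of the 10 genes. The stress sign turned for Hoxd13 with a floor (-0.073) and for Cdx2 under quantile normalization (-0.0059) and without 1 array (-0.072 to 0.14). Over the settings for the whole design it also turned for Hoxd10 (-0.091 to 0.060), Hoxd11 (-0.022 to 0.46) and Cdx1 (-0.037 to 0.0034). Without 1 array it turned as well for Hoxd10 (-0.18 to 0.043), Cdx1 (-0.078 to 0.081), Hoxb9 (-0.046 to 0.099), Hoxa10 (-0.0097 to 0.073) and Hoxb8 (-0.56 to 0.048).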

Other observations

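Of 16 other tested factors of intestinal epithelial identity, 4 were called higher in rectum (limma, adjusted p under 0.05), 3 lower and 9 not, where 27.1% of all probes were called, with a median of 0.10 against 0.05 over all probes; under 4 other scalings 4 to 6 were higher and 3 lower. The largest rises were those of Klf5, a factor of crypt cells (0.82 ± 0.09, adjusted p = 0.00121), and of the pioneer factor gene Foxa2 (0.70 ± 0.20, adjusted p = 0.045). The largest falls were those of the chromatin organiser gene Satb1 (-1.16 ± 0.18, adjusted p = 0.00425) and of Atoh1, which commits cells to the secretory fate (-1.03 ± 0.15, adjusted p = 0.00319).

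In IL18ko mice 3 of the 16 were called higher and 0 lower, where 11.6% of all probes were called, and 3 to 5 higher and 0 lower under the other scalings. Klf4, a factor of goblet and surface cells, was higher by 0.92, 1.52, 1.78 and 1.16 in stressed rectum, control rectum, stressed colon and control colon (1.34 ± 0.13, adjusted p = 5.1e-05). Atoh1 was higher by 1.18, 0.92, 0.99 and 1.41 in the same order (1.12 ± 0.11, adjusted p = 3.7e-05), and Satb1 by 0.68 ± 0.14 (adjusted p = 0.00804). The 4 differences of Klf4 and of Atoh1 were all positive, and the share of all probes with 4 positive differences was not counted.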
